A study of Homo sapiens with 2 samples.

Results

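The urokinase and plasminogen activator system was followed in OECM1 cells, a head and neck cancer line, with and without a let-7i vector. Its members were chosen by gene symbol: all probe sets that the platform annotation gives to PLAU, PLAUR, PLAT, SERPINE2 or SERPINB2. Of the 5 genes, 4 had a probe set named for them, together 8 probe sets, out of 19775 genes named on the array. No probe set was named for SERPINB2 (plasminogen activator inhibitor 2) in the annotation used, so it was not analysed here. The control was OECM1 stably transfected with the pmR-mCherry empty vector, and the other group was OECM1 stably transfected with pmCherry-let7i. Both carry the red fluorescent protein mCherry, and both were grown in serum-containing RPMI medium. The labels do not say whether a line was 1 clone or a pool of transfected cells. Each group had 1 array, so the differences lack replicates: they carry neither a p-value nor a spread between cultures.

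Plasminogen activators are serine proteases that cut the circulating zymogen plasminogen into plasmin, a broad protease that dissolves fibrin and breaks down matrix proteins. Urokinase (PLAU) acts mostly at the cell surface, bound to its receptor (PLAUR), while tissue-type activator (PLAT) acts mostly on fibrin. Serpins, inhibitors that trap their protease in a covalent complex, hold the system in check, and in squamous carcinomas urokinase and its receptor have long been studied for their part in invasion. let-7i is a microRNA of the let-7 family, which recognises messenger RNAs mainly through its seed.

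The agent of the experiment is shown first, as 5′ to 3′ RNA with its seed (bases 2 to 8) in capitals, beside a pair of family members with the same seed. Sequences are those of RefSeq on GRCh38.p14, where let-7i-5p lies at chr12:62603691-62603712 on the plus strand.
hsa-let-7i-5p: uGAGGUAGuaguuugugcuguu
hsa-let-7g-5p: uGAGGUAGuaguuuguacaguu
hsa-let-7a-5p: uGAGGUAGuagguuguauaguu
The table held 11 mature microRNAs with this seed, and let-7g-5p, which differs from let-7i-5p at 2 bases, was the nearest of them. Sites for this seed in the members' transcripts were not searched here, and the mature microRNA is not read by this kind of array, so the labels were not checked by it.

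The 4 members with data were all higher with let-7i, by modest amounts, and 1 of them stood out. SERPINE2 was 1.91-fold higher, while PLAT was 1.27-fold, PLAU 1.16-fold and PLAUR 1.15-fold higher, each in its brightest probe set. Of the 8 probe sets, 7 were measured on both arrays, which means a signal at or above the median of the array (the floor, 88.0 on the control array and 79.5 on the let-7i array). All 7 were higher with let-7i, against 47.4% of all probe sets measured on both arrays. Probe sets of 1 gene share their RNA, so the 7 are not 7 independent observations. No member reached 2-fold, a size that 2.43% of genes (out of 12284 that reached the floor on 1 array or both) and 2.37% of probe sets passed in either direction. Past 1.5-fold there was 1 of the 4, SERPINE2, where 4.18% of all genes were higher by that much. The median log2 ratio (let-7i over empty vector) of the 4 genes was 0.28, beside 0.00 for all genes measured on both arrays, to which the ratios are centred.

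**Figure D1:**
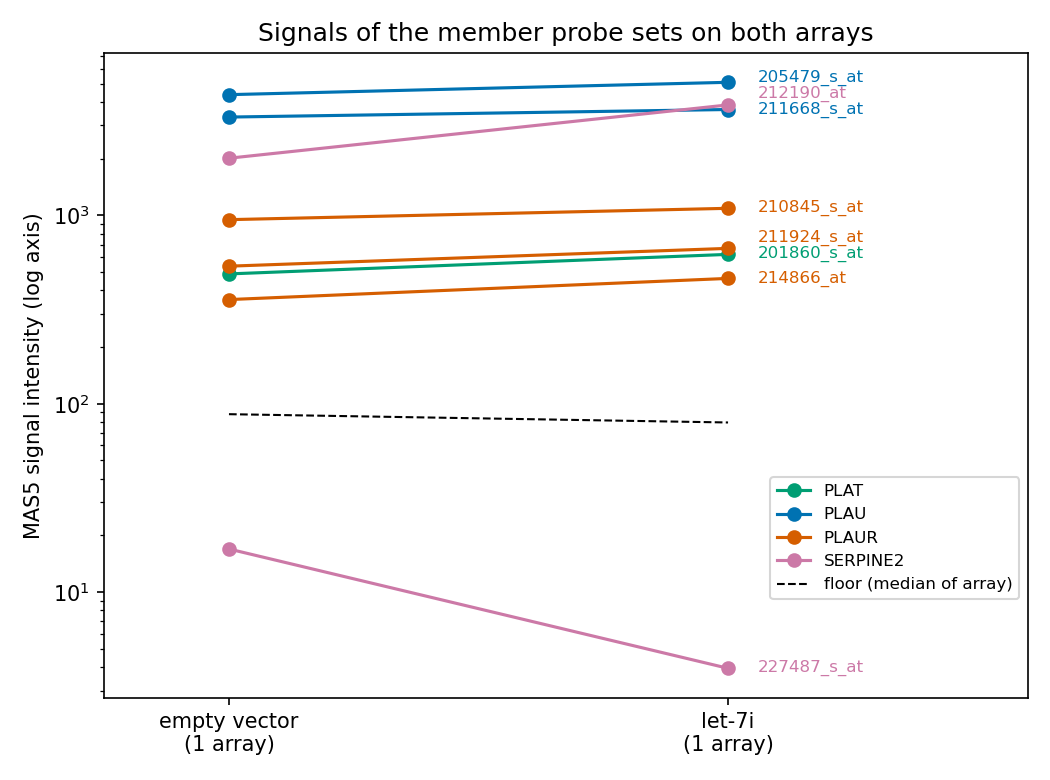
MAS5 signal intensity (vertical log axis) of each of the 8 member probe sets on the empty vector array and the let-7i array, 1 point per array, joined by a line coloured by gene, with the floor of each array dashed. The lines of the 7 probe sets above the floor all climb, that of SERPINE2 probe set 212190_at from 2011 to 3858 most steeply, and heights of different probe sets cannot be compared.

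PLAU encodes urokinase itself, secreted as an inactive single chain. Its brighter probe set, 205479_s_at, had a signal of 4373 on the control array and 5086 on the let-7i array. The other, 211668_s_at, had 3325 and 3647. Both were thus a little higher on the let-7i array, and both were far above the floor, by 37.8 to 64.0 times. The log2 ratios were 0.21 and 0.13. For scale, the spread of 1 probe set, taken from how far the 2 brightest probe sets of the same gene disagree, had an SD of 0.15 (log2) at such signals. The ratios of PLAU were 1.39 and 0.84 times that SD, which covers probe noise only. Of the 2785 genes in the brightest signal quartile of those measured, 17.0% (474 genes, PLAU included) had a ratio at least as high.

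PLAUR encodes the urokinase receptor, a protein held at the membrane by a lipid anchor. Probe set 210845_s_at read 949 on the control array and 1090 on the let-7i array. Probe set 211924_s_at had 537 and 668, and 214866_at had 357 and 463. In all 3 the let-7i array was the higher one. Their log2 ratios were 0.20, 0.31 and 0.37, a range of 0.17 that is smaller than the probe SD of 0.21 to 0.25 at these signals. The brightest of the 3 gave the lowest ratio, 0.95 times its probe SD, and the dimmest gave the highest, 1.45 times its probe SD. Among genes of similar brightness (the third signal quartile), 21.9% had a ratio at least as high as the 0.20 of PLAUR. The log2 ratios of receptor and protease differed by 0.02 in their brightest probe sets. They were 0.29 for PLAUR and 0.17 for PLAU when the probe sets of each gene were averaged.

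PLAT encodes the tissue-type activator. Its only probe set, 201860_s_at, read 489 on the control array and 621 on the let-7i array. The log2 ratio of 0.34 was 1.34 times the probe SD of 0.25 at this signal, and 12.6% of genes in its signal quartile had a ratio at least as high. With 1 probe set there was no second reading of PLAT, and its ID marks it as one that can match several transcripts.

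SERPINE2 encodes protease nexin 1, a serpin that inhibits thrombin, urokinase, tissue-type activator and plasmin and is bound by heparan sulfate on cells and matrix. Probe set 212190_at read 2011 on the control array and 3858 on the let-7i array, 22.9 and 48.5 times the floor. The log2 ratio was 0.94, which is 6.06 times the probe SD of 0.15 at such signals. The ratio was among the highest 1.07% of all genes measured (119 of 11140 were at least as high, itself included) and among 6 of the 2785 in the brightest signal quartile, where the middle 90% of genes ran from -0.36 to 0.39. A second probe set, 227487_s_at, had signals of 16.9 and 3.94, below the floor on both arrays, so it gives no ratio and no second reading. SERPINE2 thus rests on 1 probe set and 1 array per group. Its log2 ratio exceeded that of PLAT by 0.60, that of PLAU by 0.72 and that of PLAUR by 0.74, and these differences have no test either. The inhibitor was the member that differed most between the arrays, and the activators and the receptor lay close together.

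**Figure D2:**
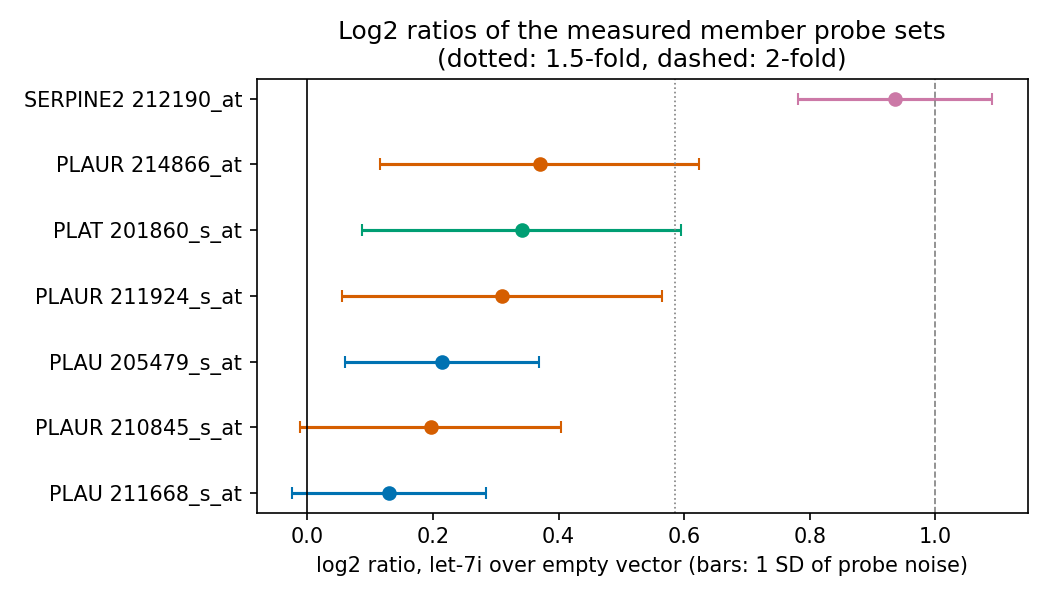
Log2 ratio of let-7i over empty vector (horizontal) for the 7 member probe sets measured on both arrays, with bars of 1 SD of probe noise at that signal. SERPINE2 at 0.94 lies apart, between the 1.5-fold (dotted) and 2-fold (dashed) lines, and the other 6 lie between 0.13 and 0.37.

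**Figure D3:**
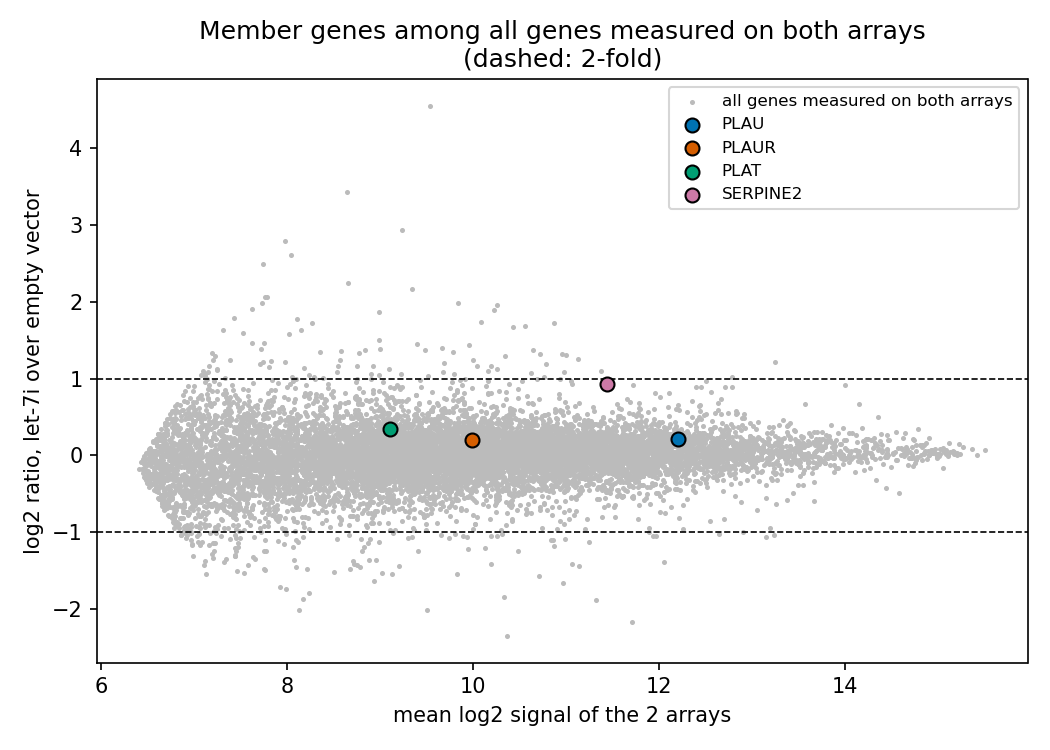
Log2 ratio (vertical) against mean log2 signal (horizontal) for the 11140 genes measured on both arrays, each by its brightest probe set, with the 4 member genes coloured. SERPINE2 lies at the upper edge of the cloud at its signal, just under the dashed 2-fold line, and PLAU, PLAUR and PLAT lie inside the cloud.

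The array carries markers of other cells, which are given here because SERPINE2 is also made by mesenchymal cells. Of 7 epithelial markers with a probe set, 4 were above the floor, 3 lower with let-7i (EPCAM 10912 and 6690, KRT19 10984 and 7522, CDH1 6785 and 5090) and 1 higher (DSP 7628 and 8220). Summed over all 7 the signal was 36365 on the control array and 27545 on the let-7i array. The basal keratins KRT5 and KRT14 and the plaque protein PKP1 were below the floor on both arrays, so the line did not show these squamous markers. KRT6A, KRT17 and TP63, also on the list, had no probe set named for them and were not read. Of 8 fibroblast markers 3 were above the floor, all higher with let-7i (DCN 163 and 322, FAP 230 and 392, COL1A1 346 and 415), and the list summed to 904 and 1311. COL1A2, COL3A1, LUM, PDGFRB and THY1 were below the floor on both arrays. Of 6 endothelial markers 1 was above the floor (PECAM1), and the list summed to 443 and 481. Of 5 leukocyte markers 2 were (CD3E and ITGAM), and PTPRC was below it on both, the list summing to 342 and 319. All these sums add signals of different probe sets, which cannot be compared in height, and include those below the floor. The part of other cells in the members' ratios was not tested, and in bulk RNA a change in the number of cells of a type cannot be told apart from a change in RNA per cell.

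The rest of the pathway was described with 7 lists of 75 genes, of which 71 had a probe set and 51 reached the floor on 1 array or both. Past 2-fold were 5 of the 51 (9.80%, beside 2.43% of all genes), 4 of them higher and 1 lower on the let-7i array. Their median log2 ratio was -0.06, close to the -0.01 of all genes above the floor, so the large differences sat in a few genes. The lists were put together with earlier results of these data known, and their share is a description of the genes picked.

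Among proteases that can turn pro-urokinase into the active enzyme, 5 of 7 were above the floor, 3 higher and 2 lower, with a median of 0.06. ST14, the membrane protease matriptase, had signals of 692 and 259 and was 2.67-fold lower, its measured probe sets giving -1.42 and -1.29. F12, coagulation factor XII, had 143 and 277, a 1.93-fold higher level at a dim signal. Its log2 ratio of 0.95 became 1.03 after lowess centring and 1.04 after quantile normalization, past 2-fold, but no more than a bound of 0.26 under the higher floor of the 65th percentile. HPN, the membrane protease hepsin, had 109 and 78.9, the second below the floor, and was at least 1.37-fold lower. The activators of urokinase thus did not point one way.

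Plasminogen itself (PLG), a liver product, was below the floor on both arrays in its 3 probe sets, with signals from 2.73 to 23.9. Of the 6 receptors and cofactors that hold plasminogen at the surface, all were measured, 3 higher and 3 lower, none past 2-fold, with a median of 0.01. ANXA2, which binds plasminogen and tissue-type activator as a complex with S100A10, read 25731 and 26092 (log2 ratio 0.02). Its measured probe sets lay between 0.02 and 0.08. The ratio was -0.04 after lowess centring and -0.04 after quantile normalization, so the direction of ANXA2 depended on the scaling. S100A10 had 23239 and 18596, a 1.25-fold lower level, and its measured probe sets ran from -0.66 to -0.33. HMGB1, a chromatin protein that is also found outside cells, had a log2 ratio of 0.14. Its measured probe sets ran from -0.02 to 0.43. KRT8, a keratin that can bind plasminogen at the surface of carcinoma cells, had a log2 ratio of -0.19.

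Other inhibitors were mostly dim. Of the 6 with a probe set, 5 were below the floor on both arrays. A2M, a broad protease trap, had 57.5 and 99.1, at least 1.12-fold higher. Under the 25th percentile floor, which both signals reached, its log2 ratio was 0.80. Of the list of other clade B and E serpins, 11 had a probe set, all of them clade B. Of these, 5 were measured, 1 higher and 4 lower, with a median of -0.10. SERPINB3, a squamous cell carcinoma antigen, had 209 and 170 (a log2 ratio of -0.30), SERPINB8 146 and 126 (-0.22) and SERPINB5, maspin, 768 and 721 (-0.10). When probe sets were averaged and the ratios centred anew, SERPINB8 gave 0.13 and SERPINB3 -0.02.

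Receptors that clear the protease with its inhibitor, and surface partners of the urokinase receptor, had 14 genes with a probe set, 13 of them above the floor, 4 higher and 9 lower, with a median of -0.15. Of the 9, 3 were bounds set by the floor, and the 10 genes measured on both arrays split into 4 higher and 6 lower, their median being -0.07 beside 0.00 for all genes measured. ITGA5, the alpha chain of the fibronectin receptor, was the exception in size, with signals of 502 and 1322, a 2.63-fold higher level. SORL1, a sorting receptor that binds urokinase complexes, had 582 and 356 and was 1.64-fold lower by its brightest probe set, the measured ones running from -0.71 to -0.34. MRC2, the endocytic collagen receptor that joins the urokinase receptor, had 127 and 34.2 and was at least 1.61-fold lower. Under the 25th percentile floor, which both signals reached, its log2 ratio was -1.89. LRP1, the main endocytic receptor for protease and serpin complexes, had 88.6 and 66.0, at and below the floor. This bounds LRP1 at 1.12-fold lower or more, and its log2 ratio was -0.41 under that lower floor, which both signals reached. The log2 bound was only -0.003 after lowess centring and -0.02 after quantile normalization, so calling LRP1 lower depends on the scaling.

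Downstream, 8 of 11 pro-enzymes, growth factors and receptors were above the floor, 3 higher and 5 lower, with a median of -0.14. MMP1, a collagenase made as a pro-enzyme that plasmin can activate, had 153 and 3610, the largest difference in any of the lists. Its log2 ratio was 4.56, or a bound of 3.97 under the 65th percentile floor. MMP2, a gelatinase, had 30.3 and 236, at least 2.68-fold higher, but its log2 bound was 0.03 under that higher floor. Under the 25th percentile floor, which both signals reached, its log2 ratio was 2.98. MMP14, a membrane metalloprotease, had 769 and 533, and its measured probe sets ran from -0.75 to 0.17.

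**Figure D4:**
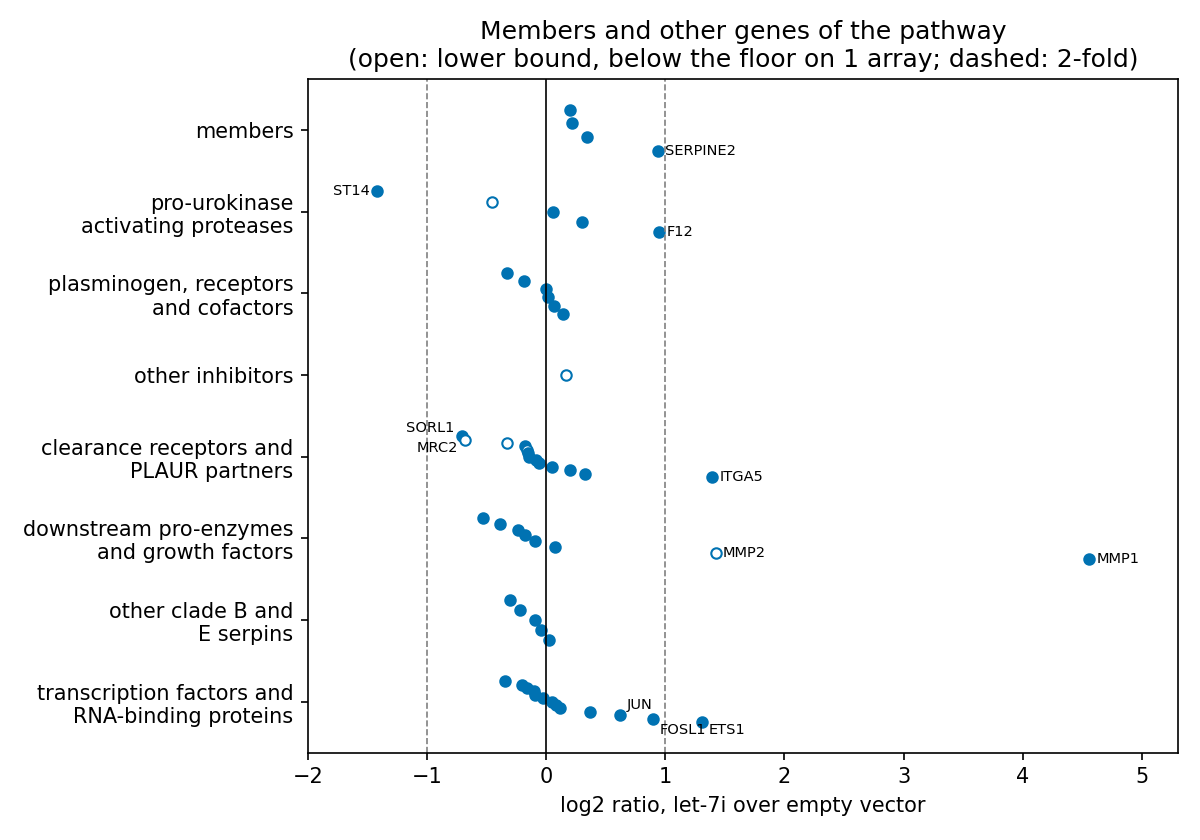
Log2 ratio of let-7i over empty vector (horizontal) for the 4 member genes and for the genes of 7 lists that reached the floor on 1 array or both, 1 point per gene, open where the gene was below the floor on 1 array. MMP1 lies farthest right, ST14 farthest left, and 5 list genes are past the dashed 2-fold lines.

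Factors known to act on transcription or stability of urokinase system transcripts included both AP-1 and ETS proteins. Of 15, 13 were measured, 7 higher and 6 lower, with a median of 0.05. ETS1, an ETS transcription factor, had 1304 and 3236 and was 2.48-fold higher by its brightest probe set. However, its measured probe sets ran from 0.41 to 1.31, and averaging over probe sets and centring anew gave 0.97, under 2-fold. FOSL1, an AP-1 subunit, had 3953 and 7372 and was 1.86-fold higher. JUN, its partner in AP-1, had 2849 and 4386 and was 1.54-fold higher by its brightest probe set, with a range from 0.03 to 0.62.

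Because these factors are on the list, the promoter windows of the members were searched for the AP-1 letters TGANTCA and the ETS letters CNGGAA on both strands. The windows run from 250 bases before to 50 after a transcript start, from RefSeq on GRCh38.p14, and PLAU and SERPINE2 have 2 windows each. PLAT had no window in the table. TGANTCA stood once in the window of PLAUR and once in that of SERPINB2, the member without expression values here, and in none of the windows of PLAU or SERPINE2, and 7.71% of all 35116 windows hold it. CNGGAA stood in the window of PLAUR at 2 places, in that of SERPINB2 and in 1 of the windows of SERPINE2, while 62.0% of all windows hold it. The PLAUR window, chr19:43670120-43670419 on the minus strand, is printed with its AP-1 letters in capitals, the first of them 186 bases before the start.
PLAUR: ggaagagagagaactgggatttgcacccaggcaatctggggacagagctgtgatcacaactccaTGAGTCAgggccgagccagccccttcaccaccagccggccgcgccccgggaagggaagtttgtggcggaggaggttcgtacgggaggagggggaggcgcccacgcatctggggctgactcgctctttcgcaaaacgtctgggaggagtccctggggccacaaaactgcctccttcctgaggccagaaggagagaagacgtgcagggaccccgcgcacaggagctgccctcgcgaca
No match in a window says only that these letters are not in it, and a match is not a bound site.

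The windows of SERPINE2, the member with the largest ratio, carry another feature, which was looked for after the sequences had been seen. The window at chr2:224031429-224031728 on the minus strand, printed with CCAAT on either strand in capitals, held that box 7 times.
SERPINE2: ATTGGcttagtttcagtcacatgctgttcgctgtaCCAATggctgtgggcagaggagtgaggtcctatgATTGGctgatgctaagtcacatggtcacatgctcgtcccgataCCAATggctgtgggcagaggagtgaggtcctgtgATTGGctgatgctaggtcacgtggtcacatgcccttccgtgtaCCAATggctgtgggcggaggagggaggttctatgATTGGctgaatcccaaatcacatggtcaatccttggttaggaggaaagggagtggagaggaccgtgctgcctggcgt
At least as many copies stood in 8 of the 35116 windows (0.0228%), and 34.6% held at least 1. The copies lie in a stretch that recurs nearly unchanged within the window, so they are not separate occurrences. The share describes a feature picked from this window. The other SERPINE2 window, at the start farther upstream, held none, as did the windows of PLAUR and SERPINB2, and 1 of the windows of PLAU held 1. The array does not tell which start was used, and this feature was not tested against the expression values.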

How the data were processed

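Total RNA of 2 OECM1 cultures was labelled with biotin as cRNA and read on 1-colour Affymetrix arrays, following the labels' protocols. Each deposited value is the linear signal intensity of a probe set; MAS5 is the tool named in the submitters' processing notes, and its version was not given. With 1 array per group, the number of arrays limits the precision. Of 54675 probe sets, 41097 carried 1 gene symbol in the platform annotation and were used, 1801 carried several and 11777 none. MAS5 subtracts mismatch signal, so dim values are noisy, and signals below the 50th percentile of their array were set to it, which makes the ratio a bound. The probe set of highest mean log2 signal stands for its gene. Log2 ratios were centred on the median of the genes at or above the floor on both (0.0036).

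Genes were described by size at 2-fold. The members and lists were chosen with earlier results of these data known. Named genes are all member probe sets, the list genes past 2-fold, up to 3 genes per list by absolute ratio, and a few pathway genes whatever their values. The probe SD comes from 5807 genes with more than 1 measured probe set. The procedure was tested on simulated data with planted changes of 3-fold or more and probe noise only. It was not tested on changes as small as those of the members, nor on variation between cultures. Alternatives were no centring, quantile normalization, lowess (fraction 0.3, 3 iterations), the mean over probe sets, a floor at the 25th or the 65th percentile, leaving out shared probe sets (IDs ending in _s_at or _x_at), and sizes of 1.5-fold and 3-fold. The mean took the probe sets above the floor on 1 array or both and was centred anew on its own median. Python 3.11.15 was used with statsmodels 0.14.6, pandas 2.3.3, Matplotlib 3.10.9 and NumPy 2.4.6.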

Additional observations from a re-analysis of the deposited data

How the results depend on the processing

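All 4 member genes kept their direction, and none passed 2-fold, under each other scaling, floor and probe set rule that gave them a value. Their log2 ratios ran from 0.18 to 0.23 for PLAU, from 0.19 to 0.38 for PLAUR, from 0.33 to 0.37 for PLAT and from 0.91 to 0.96 for SERPINE2, each within the probe SD of the value reported. Without shared probe sets PLAU and PLAT had no value. At 1.5-fold 1 member and 1 member probe set were past the size in place of 0. Of the pathway list genes 10 were past 1.5-fold and 1 was past 3-fold, against 5 at 2-fold, and a floor at the 25th percentile gave 8 past 2-fold. Lowess centring and quantile normalization gave 6 each, and the 65th percentile floor and the mean over probe sets 4 each. No paired analysis was possible because each group had 1 array. Signal over background limits SERPINE2 to 1 readable probe set.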
